A study of Mus musculus with 25 samples.

Results

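Promoter-proximal TAL1 locations that lacked GATA1 were chosen by position from the location lists of a ChIP-exo study of mouse erythroid cells. A TAL1 location belonged to the set if it lay at most 1 kb from the transcription start site of a protein-coding transcript and had no GATA1 location under 500 bp away. This held for 311 of 15209 TAL1 locations, or 2.04% (95% exact binomial interval, 1.83 to 2.28%), and for 27.4% of the 1135 TAL1 locations near start sites. The other 824 promoter-proximal locations, which had GATA1 under 500 bp away, and the 4008 locations over 1 kb from any start site that also lacked GATA1 were used for comparison. In ChIP-exo, an exonuclease trims immunoprecipitated DNA up to the cross-linked protein, and the ends that remain on opposite strands form a peak pair. The deposited lists were peak pairs, MultiGPS locations, which come from a model of the tag distribution, and final locations found by both approaches. By the study's methods, the MultiGPS run was also given motif discovery settings and the mm9 sequence. A list entry is 1 base position in mm9, without a count, a score or a library of its own, so the depth behind a location is unknown and shares carry only the counting error of the locations.

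The cells were G1E, erythroid progenitors of strain 129 that lack Gata1, and G1E-ER4, in which Gata1 was restored and differentiation is induced by estradiol. The GATA1 libraries were 1 from G1E and 3 each from G1E-ER4 at 0 h and after 3 h and 24 h in estradiol, at 10 nM by the labels, while the study's methods give a higher dose. The TAL1 libraries were 4 from G1E and 5, 3 and 3 from G1E-ER4 at those times. The lists pool the libraries of a factor and name none of them, so a location cannot be assigned to a time point or to cells with or without GATA1. The labels link the GATA1 library of G1E to the GATA1 lists, whereas the study describes those lists as from G1E-ER4. G1E-ER4 is a subline of G1E, and its GATA1 is an estrogen receptor fusion that needs estradiol to drive differentiation. The study states that at 0 h this GATA1 is already partly in the nucleus and binds across the genome.

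TAL1 is a basic helix-loop-helix protein that binds DNA as a dimer with E proteins such as E2A, the product of Tcf3. In erythroid cells it works in a complex with LMO2, LDB1 and GATA1, and the complex can contact the GATA1 motif and an E-box, or only part of an E-box, a fixed distance away. TAL1 is also needed in earlier blood progenitors and is produced in cells that lack GATA1.

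DNA windows of 81 bp centered on the TAL1 location show the forms in which these motifs were found. The first set holds, of the windows clear of annotated exons, the 4 with the most TAL1 peak pairs in which TG preceded AGATAA or TGATAA by 7 or 8 bases, with both parts in capitals. Ties went to the location closer to the start site, windows that touched any annotated exon were passed over, as for those of Cbfa2t3 and Arhgef10l, and each is printed on the strand of the motif. The windows are from the mm9 genome at chr6:8719977-8720057 (+), chr11:82659815-82659895 (-), chr11:50038428-50038508 (+) and chr14:56660816-56660896 (+), in the order of the lines.
Ica1: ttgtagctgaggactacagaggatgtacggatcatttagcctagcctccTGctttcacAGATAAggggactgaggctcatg
Rffl: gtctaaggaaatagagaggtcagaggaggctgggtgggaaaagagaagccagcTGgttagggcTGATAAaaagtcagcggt
Mgat4b: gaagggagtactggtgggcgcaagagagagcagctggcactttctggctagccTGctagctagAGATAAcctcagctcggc
Mcpt2: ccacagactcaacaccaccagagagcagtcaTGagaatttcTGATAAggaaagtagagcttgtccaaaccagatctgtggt

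The second set holds 4 windows with an E-box, CAGATG or CAGCTG, within 20 bp of the location and no AGATAA or TGATAA. The E-box closest to the location is in capitals. The windows of Eif4g1 and Tmem120b also hold CATCTG, which is CAGATG on the other strand, in lower case. The 4 windows lie at chr16:20674093-20674173 (+), chr13:41344678-41344758 (-), chr8:97509224-97509304 (+) and chr5:123527086-123527166 (+).
Eif4g1: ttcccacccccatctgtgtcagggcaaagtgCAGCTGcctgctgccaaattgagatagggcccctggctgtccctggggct
BC024659: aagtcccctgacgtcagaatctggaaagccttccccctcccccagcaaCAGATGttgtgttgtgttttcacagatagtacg
Gpr56: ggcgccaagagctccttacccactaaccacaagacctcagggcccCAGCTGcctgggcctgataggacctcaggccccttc
Tmem120b: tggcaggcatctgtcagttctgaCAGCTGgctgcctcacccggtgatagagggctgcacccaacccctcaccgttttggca

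The last set holds a pair of windows with neither motif, both 5′ of Treml2 at chr17:48438748-48438828 (+) and chr17:48438673-48438753 (+). No window without the other motifs held CCGGAAG, an ETS site, so none is shown for it.
Treml2, location 48438788: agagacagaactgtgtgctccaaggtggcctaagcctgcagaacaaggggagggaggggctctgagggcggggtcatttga
Treml2, location 48438713: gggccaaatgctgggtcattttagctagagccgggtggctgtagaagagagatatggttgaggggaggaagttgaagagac

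The 311 locations were spread over the whole interval around the start site rather than gathered at it. The median distance was 465 bp, with a range of 5 to 997 bp, and 164 locations lay upstream and 147 downstream. The fullest bin of 100 bp was the one just upstream of the start site, with 34 locations, and 7 lay between 100 and 200 bp downstream. Introns held 153 locations, sequence outside genes 100, UTR exons 39, coding exons 7 and other exons 12. The start site was within 100 bp of the most upstream one of its gene for 198 locations, or 63.7%, against 61.2% of the promoter locations with GATA1. Start sites on both strands were within 1 kb for 14 locations.

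**Figure D1:**
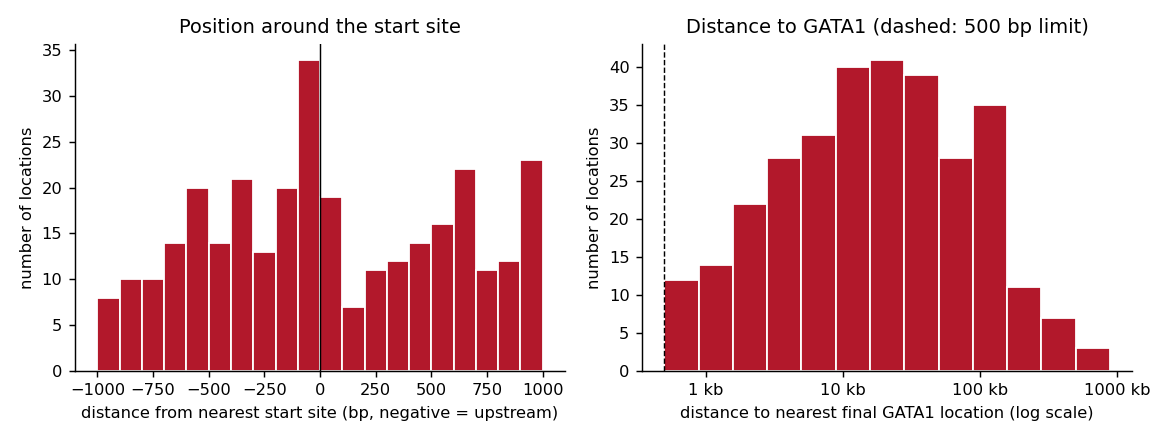
The left panel counts the 311 locations in bins of 100 bp by distance from the nearest start site, in bp, and the right panel counts them by distance to the nearest final GATA1 location on a log scale. The bin just upstream of the start site holds 34 locations, and distances to GATA1 have a median of 17305 bp.

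The nearest final GATA1 location was at a median of 17305 bp, with a range of 534 to 734584 bp. It was under 1 kb away for 14 locations, 1 to 10 kb for 97, 10 to 100 kb for 150 and farther for 50. The location with the smallest such distance was near B230312A22Rik, at 534 bp, followed by one near the start of Cd200r1 at 610 bp. Just outside the limit were locations near Olfr1509 at 484 bp and Atg4d at 475 bp. At the limit for the start site, the farthest members were near Dpf1, at 997 bp, and Ankrd43, at 995 bp, and the closest that were left out lay 1012 bp from D1Ertd622e and 1019 bp from Ptger4.

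The GATA motif, AGATAA or TGATAA on either strand, was within 40 bp of 138 locations that lacked GATA1, or 44.4% (38.8 to 50.1%). Of all 15209 TAL1 locations 45.9% had it, and of windows of the same length placed every 100 bp within 1 kb of all start sites 6.0% did. The share was 39.0% for promoter locations with GATA1 and 49.7% for distal locations lacking GATA1. Many locations share a cluster, so the groups were compared over 1 location per cluster of TAL1 locations under 500 bp apart, with clusters that held both groups left out. On this basis 126 of 254 clusters lacking GATA1 and 186 of 381 with GATA1 had the motif (odds ratio 1.03, 95% interval 0.74 to 1.44, two-sided Fisher's exact test, adjusted p = 1). Against the distal clusters the odds ratio was 0.84 (0.64 to 1.10, adjusted p = 0.51 by the same exact test), and 0.65 (adjusted p = 0.021, exact test) with the motif counted within 100 bp. At promoters, absence of a final GATA1 location thus went with no detectable difference in the GATA motif within 40 bp. The interval leaves room for odds from 0.74-fold to 1.44-fold. Against promoters with GATA1, the odds ratio was 0.73 (adjusted p = 0.27, exact test) with the motif counted within 100 bp. With any GATA1 call excluding, non-final ones included, it was 1.05 (adjusted p = 0.89, exact test).

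The motif was concentrated at the TAL1 location itself. Among the 255 clusters, windows at the location had it in 49.4% and windows 200 bp to either side in 4.71%. It was more frequent at the location than in the flanks in 126 clusters and less frequent in 14 (adjusted p = 2.1e-23, exact sign test, two-sided). A motif in either flank counted against the location, so equal shares would not give the equal counts that the test assumes. The same holds for the E-box below. In the 138 windows that had it, the motif lay at a median of 19.5 bp from the location, and within 10 bp in 36. The final locations are MultiGPS positions, and MultiGPS was run with motif discovery settings. How far this placed locations onto the GATA motif or the E-box was not tested.

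An E-box was present within 40 bp of 80 locations lacking GATA1, or 25.7% (20.96 to 30.96%), against 21.7% of all TAL1 locations and 8.78% of promoter windows. It was at 18.1% of promoter locations with GATA1 and at 26.6% of distal locations lacking GATA1. Over clusters the odds ratio was 1.36 (0.92 to 2.02, adjusted p = 0.51, Fisher's exact test) against promoters with GATA1 and 0.92 (0.67 to 1.23, adjusted p = 0.91) against distal locations, so neither difference passed the test. Counting every location separately raised the first to 1.57 (adjusted p = 0.048, exact test). The E-box, too, was more frequent at the location than in its flanks, in 65 clusters against 33 (adjusted p = 0.0016, exact sign test). In windows with an E-box its median distance from the location was 11.5 bp, and 37 of 80 had it within 10 bp.

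**Figure D2:**
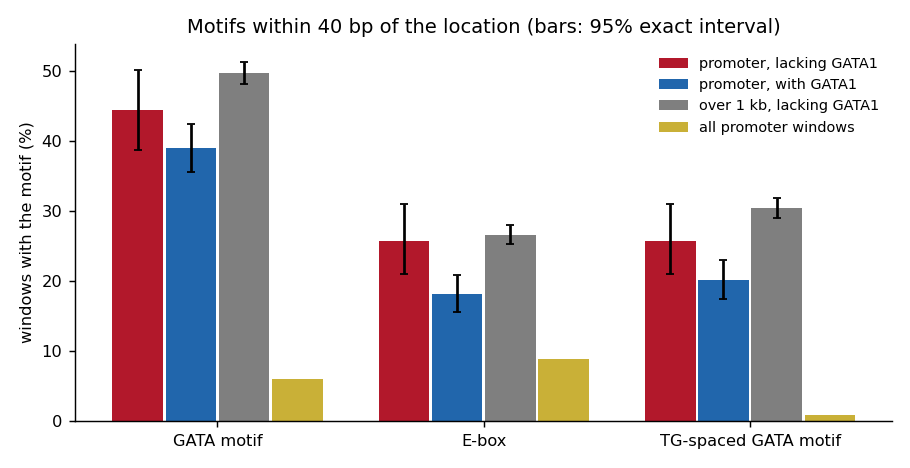
Bars give the percent of windows of 81 bp with each motif for the 311, 824 and 4008 locations of the named groups, with 95% exact binomial intervals, and for all promoter windows without interval. The GATA motif was at 44.4%, 39.0% and 49.7% of the locations and at 6.0% of promoter windows.

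Both motifs occurred together at 40 locations, the GATA motif alone at 98, the E-box alone at 40 and neither at 133, or 42.8%. TG at 7 or 8 bases upstream of the GATA motif, the spacing of composite sites of the TAL1 complex, was found at 80 locations, or 25.7%, and at 0.80% of promoter windows. It preceded the motif in 80 of the 138 windows with a GATA motif, or 58.0% (49.3 to 66.3%), against 51.7% at promoters with GATA1 and 61.3% at distal locations. TG was present at a gap of 7 bases in 22.5% of these windows and at 8 bases in 35.5%. The mean over gaps of 0 to 30 bases, with 6 to 10 left out, was 8.22%. At single gaps TG was in 17.4% at 5 bases and 13.0% at 9. The Rffl window above shows the full arrangement, CAGCTG whose last 2 bases are the TG 8 bases ahead of TGATAA. Since the TG-spaced motif contains the GATA motif, the counts overlap by construction. Over clusters its share did not pass the test against either group (odds ratio 1.16, adjusted p = 0.72, and 0.81, adjusted p = 0.51, Fisher's exact test).

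**Figure D3:**
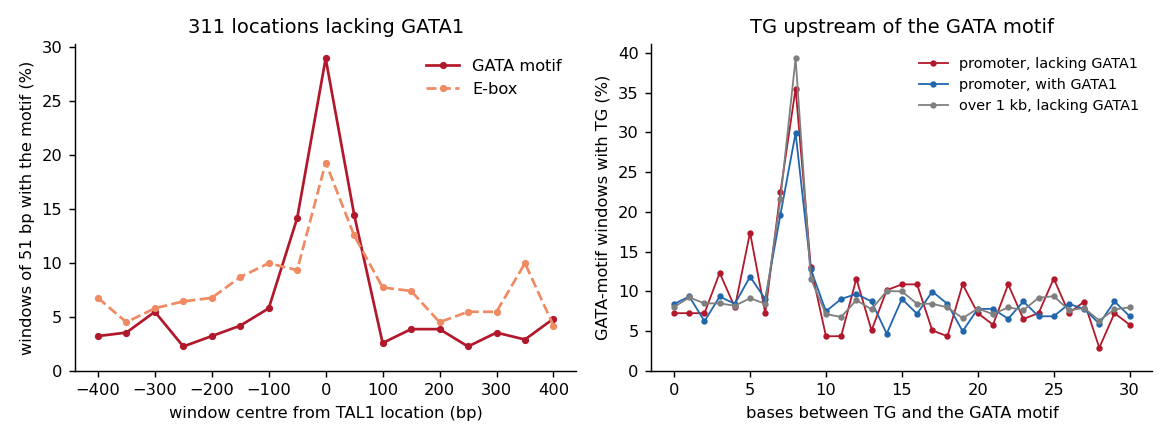
The left panel gives the percent of 51-bp windows with the GATA motif or the E-box, centered at distances of up to 400 bp from the 311 locations, and the right panel the percent of GATA-motif windows with TG at each gap upstream, in bases, for the 3 groups. Both motifs peak at the location, and TG peaks at 8 bases in all 3 groups, at 35.5% for the locations lacking GATA1.

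All 4 windows printed for the E-box also held AGATAG or TGATAG, a form of the GATA motif that the search had left out. It was counted after these sequences had been seen, so the count is a description. AGATAG or TGATAG was within 40 bp of 38 of the 173 locations without AGATAA or TGATAA, or 22.0% (16.0 to 28.9%), and in 4.88% of promoter windows without them. The share was 14.7% of 503 such promoter locations with GATA1 and 20.9% of 2015 such distal locations. With an E-box and no AGATAA or TGATAA, it was at 14 of 40 locations lacking GATA1, at 13 of 94 promoter locations with GATA1 and at 134 of 562 distal locations.

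A further 11 strings were searched on both strands, and no difference between groups over clusters passed the test. They were CACGTG for MYC and USF, CCGGAAG and the shorter AGGAAG for ETS factors, TGTGGT for RUNX factors, GGGCGG for SP factors, CACACCC for KLF1, CCAAT for NF-Y, TGACGTCA for CREB, GCCATNTT for YY1, TGANTCA for AP-1 and NFE2, and for NRF1 the palindromic site by name. With the TG-spaced motif this made 24 comparisons, of which 0 passed an adjusted p of 0.05 and 2 had an unadjusted p under 0.05 by Fisher's exact test. CCAAT, the site of NF-Y, was at 6.30% of clusters lacking GATA1 and 11.5% of promoter clusters with it (p = 0.027, adjusted p = 0.50, exact test), and at 9.81% of promoter windows. TGTGGT, a RUNX site, was at 6.40% against 10.6% of distal clusters (p = 0.039, adjusted p = 0.50, exact test), and at 4.9% of promoter windows. CCGGAAG, common at housekeeping promoters, was at 1 of the 311 locations and at 1.13% of promoter windows. GGGCGG, the GC box, was at 3.86% of the locations and at 7.91% of promoter windows.

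Most of the locations had surroundings poor in CpG. The 250 bp to either side had together at least 50% G and C and an observed to expected CpG ratio of at least 0.6 at 50 of the 311 locations, or 16.1%. Promoter locations with GATA1 had such surroundings at 9.34% and distal locations lacking GATA1 at 0.42%, so the set was richer in CpG than the distal group. The share over all promoter windows was not computed. Over clusters the share was 17.3% against 12.1% at promoters with GATA1 (odds ratio 1.53, 0.95 to 2.45, adjusted p = 0.19, Fisher's exact test). This comparison depended on the settings, since it passed with every location counted (1.86, adjusted p = 0.0049), with all locations near any GATA1 peak pair or MultiGPS location excluded (1.82, adjusted p = 0.040) and with 55% and 0.75 as limits (2.74, adjusted p = 0.0080, all exact tests). Closeness to the start site did not separate the groups: 29.9% of clusters lacking GATA1 and 32.8% of those with it were within 250 bp (odds ratio 0.87, 0.61 to 1.25, adjusted p = 0.68, exact test).

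The promoter groups differed in the number of TAL1 peak pairs around a location and in clustering. Pairs are counted as positions in a list and do not measure the amount of TAL1. At 132 of the 311 locations a single TAL1 peak pair lay within 100 bp, at 83 there were 2, at 48 there were 3, and the remaining 48 had 4 to 7. Over clusters 52.0% of those lacking GATA1 had 2 or more pairs, against 79.8% of promoter clusters with GATA1 (odds ratio 0.27, 0.19 to 0.40, adjusted p = 7.8e-13, Fisher's exact test). Distal clusters lacking GATA1 had 2 or more pairs in 49.95% (odds ratio 1.05, 0.81 to 1.37, adjusted p = 0.74, exact test). Clusters of 2 or more TAL1 locations made up 14.96% of those lacking GATA1 and 52.5% of promoter clusters with it (odds ratio 0.16, 0.10 to 0.24, adjusted p = 3.8e-22, exact test), and 13.6% against 16.0% in the comparison with distal ones (odds ratio 0.82, 0.55 to 1.20, adjusted p = 0.65). A longer cluster has more room for a GATA1 location within 500 bp, and the part of this in the difference was not tested. With clusters of 1 location only, an alternative added after the data were seen, 44.9% and 64.1% had 2 or more pairs (odds ratio 0.46, adjusted p = 0.0012, exact test).

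**Figure D4:**
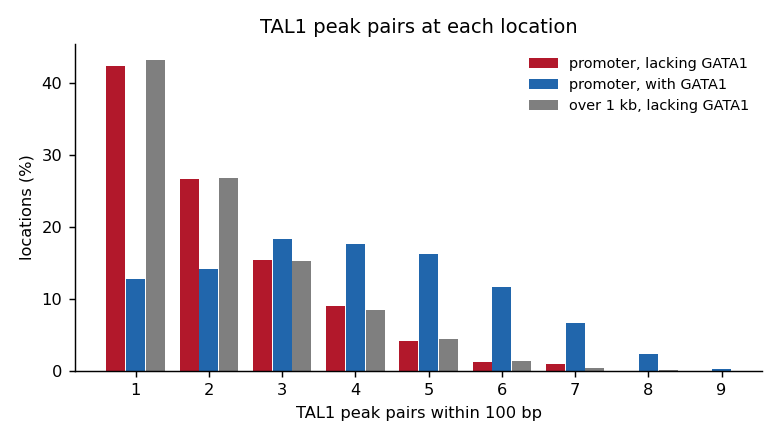
Bars give the percent of locations in each group by the number of TAL1 peak pairs within 100 bp. A single pair was found at 42.4% of promoter locations lacking GATA1, and the locations with GATA1 reach higher numbers.

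Other GATA1 calls were often present where no final GATA1 location was near. A non-final GATA1 call, which is a peak pair or MultiGPS location of GATA1 that had not entered the final list, lay under 500 bp from 148 of the 311 locations, or 47.6% (41.9 to 53.3%). A GATA1 peak pair was under 500 bp away at 119, under 100 bp at 79 and under 40 bp at 49, and a MultiGPS location under 500 bp at 39. Over clusters 110 of 250 had such a call, against 45.1% of distal clusters (odds ratio 0.96, 0.73 to 1.25, adjusted p = 0.74, Fisher's exact test). Leaving out all locations with a non-final call reduced the set from 311 to 163. The GATA motif was in 49.1% of 112 clusters with a non-final GATA1 call and in 49.7% of 143 without (odds ratio 0.98, 0.58 to 1.65, adjusted p = 1, exact test), a split that was added after the data were seen.

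Within the set, no relation between the motifs and other features passed the test. CpG content, distance from the start site and clustering were each set against the GATA motif and the E-box, and by Fisher's exact test 0 of 6 comparisons passed, none of them below an unadjusted p of 0.05. The lowest adjusted p was 0.26, shared by 3 comparisons, among them the GATA motif at 35.9% of clusters of 2 or more locations and 51.9% of single ones. Counted over every location this was 27.4% against 51.9% (odds ratio 0.35, adjusted p = 4.0e-04, exact test), where the locations of a cluster are not independent.

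The 311 locations were within 1 kb of a start site of 258 genes, or 1.16% of 22202 protein-coding genes, and the 824 locations with GATA1 of 379 genes, or 1.71%. Both kinds were found at 13 genes. Most genes, 215, had a single location lacking GATA1, 28 had 2, and 15 had 3 or more. These were Cbfa2t3 with 7, Epb4.2 with 5, Crebbp, Gcn1l1, Ica1 and Treml2 with 4, and 4933407C03Rik, Ankfy1, Arhgef25, Blm, Mpp2, Plscr2, Slc34a3, Tmem120b and Tspo2 with 3.

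Genes of the TAL1 complex and its partners were among them. Cbfa2t3, which encodes the corepressor ETO2, had 6 locations on chromosome 8 between 178 bp downstream and 304 bp upstream of a start site, with 2 to 6 TAL1 peak pairs each, and another 919 bp upstream of a second start site. The nearest final GATA1 location to the 6 was 1535 to 2017 bp away, and no GATA1 call of any kind was closer than 1526 bp. The location 95 bp upstream, at chr8:125223104, had both a TG-spaced GATA motif and an E-box. Tcf3, which encodes the E2A partners of TAL1, had 2 locations at 98 and 116 bp upstream in an intron, the first, at chr10:79884703, with a TG-spaced GATA motif, and a non-final GATA1 call 37 bp from it. Of 21 genes on a list of the TAL1 complex, 2 had a location lacking GATA1, and 4 had one with GATA1, namely Gata1, Lmo2, Lyl1 and Tal1.

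Genes of the red cell membrane and surface were also in the set. Epb4.2, for protein 4.2 of the membrane skeleton, had 5 locations on chromosome 2 within 95 bp of a start site, with 4 to 7 TAL1 peak pairs each. The final GATA1 location nearest to these 5 was over 17 kb away, and so was the nearest non-final call. The location 11 bp upstream, at chr2:120862819, held a TG-spaced GATA motif and an E-box, and the others held no GATA motif. Rhag, for the Rh-associated glycoprotein, had a location 15 bp downstream of its start site, at chr17:40948090 in a UTR exon, with a TG-spaced GATA motif and 2 peak pairs, and another 568 bp downstream. Gypc, for glycophorin C, had 1 location 91 bp upstream with an E-box, no GATA motif and a non-final GATA1 call 150 bp away. Tspo2, an erythroid relative of the translocator protein, had 3 locations 515 to 663 bp downstream, and the farthest of them had a TG-spaced GATA motif with a non-final GATA1 call 17 bp away. In all, 4 of 37 listed erythroid genes had a location lacking GATA1, or 10.8%, against 1.16% of all protein-coding genes. One with GATA1 was at 19, or 51.4%, against 1.71% of all, among them Epor, Fech, Slc4a1 and Urod.

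**Figure D5:**
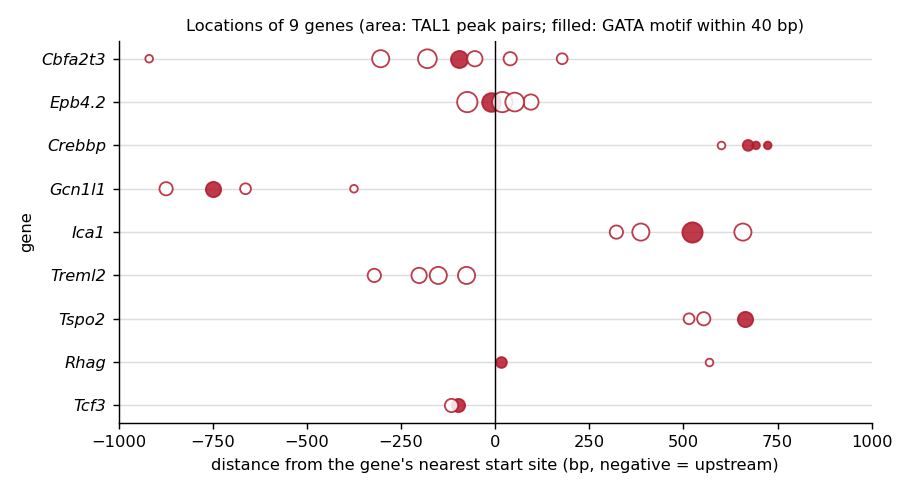
Each circle is a TAL1 location lacking GATA1, placed by its distance in bp from the nearest start site of the gene on the left, with an area proportional to the number of TAL1 peak pairs within 100 bp and filled where a GATA motif is within 40 bp. Epb4.2 has 5 circles within 95 bp of a start site, 1 of them filled, and the circles of Ica1 and Crebbp lie downstream.

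Other listed genes had a location each, except Crebbp. Myc had one 448 bp upstream, at chr15:61816498, with a single peak pair and neither motif, and its nearest GATA1 call of any kind was 42617 bp away. Elf1, for an ETS factor, had one 795 bp downstream in an intron, at chr14:79881796, which was nearer to a start site of Wbp4, at 721 bp, with a GATA motif and a non-final GATA1 call 2 bp away. Gp6, for the platelet collagen receptor, had one 155 bp upstream, at chr7:4349501, with a TG-spaced GATA motif and an E-box. E2f1, which drives entry into S phase, had one in a coding exon 268 bp downstream, at chr2:154394885, with an E-box. A non-final GATA1 call lay 398 bp from the E2f1 location. Crebbp, for the CBP acetyltransferase, had 4 within 124 bp of each other in an intron, at chr16:4212499-4212623, with 1 or 2 peak pairs each and a GATA motif in 3 of the windows. Over the 7 lists of the TAL1 complex, blood transcription factors, erythroid genes, progenitor signalling, platelet genes, cell cycle and chromatin regulators, 11 of 199 genes had a location lacking GATA1, or 5.53%, against 1.16% of all genes. With GATA1 there were 34, or 17.1%, against 1.71%. The first count was 19 with GATA1 excluded only within 250 bp and 6 with every non-final GATA1 call excluded.

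The remaining lists held few such genes. Of all protein-coding genes 1.16% had a location lacking GATA1 and 1.71% one with GATA1. Lists this small cannot tell a low share from that of all genes. No gene of progenitor signalling (28 genes) had a location lacking GATA1, and Csf2rb had one with GATA1. None of 76 ribosomal protein genes had one, against 2 with GATA1, and of 76 histone genes Hist1h1a had one 942 bp downstream of a start site. Lists of 13 neuron, 14 liver and 14 muscle genes had none of either kind.

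The 10 locations with the most TAL1 peak pairs, with ties broken by closeness to the start site, included 4 of Epb4.2 with 6 or 7 pairs and 1 of Cbfa2t3 with 6. Ica1, for an islet cell autoantigen, had 7 peak pairs around the location 523 bp downstream whose sequence is printed first, with a non-final GATA1 call 98 bp away. Rffl, for a ubiquitin ligase, had 6 pairs and a non-final GATA1 call 18 bp away. Adamtsl5 and Arhgef10l were the closest to a start site of the 13 locations with 5 pairs, at 18 and 24 bp upstream. The Arhgef10l location held a TG-spaced GATA motif and an E-box, and no GATA1 call was within 99838 bp. Treml2, for a receptor of myeloid and lymphoid cells, had 4 locations 76 to 321 bp upstream with 3 to 5 pairs and neither motif in any window, and non-final GATA1 calls 47 to 173 bp away. Gcn1l1, which acts with the kinase GCN2, had 4 locations 375 to 874 bp upstream, each with a non-final GATA1 call 2 to 121 bp away.

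Some genes of mast cells and other myeloid cells had a location lacking GATA1, and were picked out by name after the values were seen. No list of such genes was counted, so their share beside the 1.16% of all genes is unknown. Cpa3, for mast cell carboxypeptidase, had a location 94 bp upstream, at chr3:20142174, with an E-box and 2 peak pairs. A non-final GATA1 call lay 481 bp from this location. Mcpt2, for a mast cell protease, had one 104 bp upstream with 4 pairs, the TG-spaced GATA motif printed above and no GATA1 call within 15851 bp. Its neighbor Mcpt9 had one 507 bp upstream with neither motif. Il1rl1, for the receptor of interleukin 33, had one 134 bp upstream of a start site and one 949 bp downstream of another, and non-final GATA1 calls 30 and 33 bp away. Cd200r3 and Clec10a had one each, 78 and 184 bp upstream, with a GATA motif and non-final GATA1 calls 23 and 26 bp away. Erythroid genes outside the lists, picked in the same way, were Darc, for the Duffy antigen, with a TG-spaced GATA motif and an E-box 53 bp downstream, and Pklr, for the red cell pyruvate kinase, with a location 82 bp upstream without either motif and a non-final GATA1 call 31 bp away. The level of RNA from these genes was not measured in these libraries.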

How the data were processed

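The authors aligned ChIP-exo reads to mm9; the submitters' processing notes name Bowtie 1.00, BWA 0.6.2 and 0.7.9a, CASAVA 1.7 and bcl2fastq 2.15. Per the paper's methods replicates were merged, and calls over 2-fold above input at a q-value under 0.05 were kept. The deposited lists hold single positions (no unit of signal, score or count) for 15209 TAL1 and 10290 GATA1 final locations, 17639 and 12781 MultiGPS locations and 63546 and 46666 peak pairs. The paper describes the GATA1 calls as those of G1E-ER4 cells, while the labels also tie the single G1E library for GATA1 to those lists. Positions were within the mm9 lengths of all 20 chromosomes.

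Start sites were 45939 positions of transcripts typed protein-coding in the GENCODE annotation of mm9 (22202 gene names). The plan had all transcripts of protein-coding genes (69930 positions) as the main choice; the order was swapped so that the set matched its definition, and all transcripts became the alternative. Motifs were searched as strings in mm9. Groups were compared over 1 location per cluster, the one nearest the cluster's median, by two-sided Fisher's exact tests, and windows with flanks by exact sign tests. Benjamini-Hochberg adjustment was over 28 motif, 7 other, 2 flank and 6 within-set comparisons, and over 3 added ones. Locations are not replicates, and intervals cover counting error only. The tests were tested on simulated data. The members, gene lists and tests were chosen with earlier results of these data known. The genes named are those with the most members, the 10 members with the most TAL1 pairs, genes of 7 lists and members nearest the limits, besides the windows printed by number of pairs outside annotated exons, the other lists' counts, and mast cell, myeloid and erythroid genes picked after their values were seen. Gfi1 and Map2 of the lists were not matched by symbol. No value of a single library or time point was used. Python 3.11.15, numpy 2.4.6, scipy 1.17.1, statsmodels 0.14.6, pysam 0.24.0, samtools 1.23.1 and matplotlib 3.10.9 were used.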

Additional observations from a re-analysis of the deposited data

How the results depend on the processing

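No paired analysis was possible because the lists pool the replicates of a factor and no entry names a library, and for the same reason no replicate could be left out. The higher share of 2 or more TAL1 peak pairs and of clusters at promoters with GATA1, and the excess of both motifs over their flanks, passed the test under every alternative run. All runs of the flank tests used the same list of called positions. The odds ratio for pairs ranged from 0.20 to 0.46 over 9 settings and that for clusters from 0.12 to 0.19 over 8. The number of members moved to 165 with a start site at most 500 bp away, to 513 at 2 kb and to 163 with any GATA1 call excluding, and listed genes with a member moved from 11 to 19 with GATA1 excluded within 250 bp and to 6 with any call excluding. With every location counted, the E-box against promoters with GATA1 (odds ratio 1.57) and CpG-rich windows (1.86) passed, 2 other motifs passed (CACACCC and the NRF1 site, both higher than at distal locations), and 1 of 6 comparisons within the set did. The NRF1 result rested on 2 of 311 locations against 0 of 4008, and the site was at 0.41% of promoter windows. CpG-rich windows also passed with any GATA1 call excluding (1.82) and with stricter limits (2.74). With motifs within 100 bp, the GATA motif became less frequent than at distal locations (0.65), turned from 1.03 to 0.73 against promoters with GATA1 without passing, and 2 other motifs passed (GGGCGG and the NRF1 site). Within 100 bp the NRF1 site was at 1.2% of clusters lacking GATA1 and 0% of distal ones. Directions that never passed also turned for the E-box against distal locations (1.01) and for pairs (0.96) at 500 bp from the start site, for pairs within 40 bp (0.92) and for start sites within 100 bp (1.08). Of 131 recomputed values, 113 kept direction and side of the threshold, or stayed within 1.5-fold for counts. The causes of these changes were not tested.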
